A study of Canis lupus familiaris with 10 samples.

Results

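The genes described here are those that encode the proteins of the 2 ribosomes of the cell, the cytosolic and the mitochondrial, as measured in the canine retina in advanced glaucoma. Probe sets of the array were taken where their only gene symbol was RPL or RPS followed by a digit (S6 kinases left out), RPLP0, RPLP1, RPLP2 or RPSA, or MRPL or MRPS followed by a digit. This gave 283 probe sets for 132 of the 15115 genes with a symbol of their own, 59 of them cytosolic (121 probe sets) and 73 mitochondrial (162 probe sets). After the filter on low values, 56 cytosolic genes (95 probe sets) and 72 mitochondrial genes (142 probe sets) were tested. The genes without a tested probe set were RPL10L, RPL37A and RPL3L in the cytosolic and MRPL54 in the mitochondrial set, none of which passed a log2 value of 7 in any retina. RPSA, RPS6, RPL3, RPL11, RPL39, RPL39L, RPL36A and MRPL44 had no probe set under the rule.

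Neural retina was profiled on 1 Affymetrix Canine Genome array per dog in 5 dogs with primary closed-angle glaucoma and in 5 healthy dogs, 1 eye each. The glaucoma group held 2 Shiba Inus (replicates 1 and 2, aged 5 and 14 years by the labels), 2 Basset Hounds (replicates 3 and 4, 5 and 7 years) and 1 Dalmatian (replicate 5, 9 years), had elevated intraocular pressure and was treated with pressure-lowering drops (latanoprost, brinzolamide) without surgery. The healthy group consisted of Beagles aged 4 years, so that breed, age, drug treatment and disease cannot be told apart. The p-values measure the spread between dogs of different breeds and ages in the glaucoma group and between dogs of a single breed and age in the healthy group.

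The ribosome translates messenger RNA into protein. The cytosolic ribosome consists of a small subunit, which reads the message, and a large subunit, which joins the amino acids, and its messengers share a 5′ terminal oligopyrimidine tract through which growth signals set their translation together. The mitochondrial ribosome is built from proteins encoded in the nucleus and translates only the few respiratory chain messengers of the mitochondrial genome, on which the energy supply of the photoreceptors depends. Values below are log2 of the deposited intensities unless given as summed intensity, the brightest tested probe set stands for a gene, and a gene was called at a Benjamini-Hochberg adjusted p under 0.05 in limma over all tested probe sets, with no minimum fold change.

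Among the other cell types the retinal samples could hold, all 8 measured microglia and macrophage markers were detected at increased levels in the glaucomatous retina (median log2 difference 2.49, summed intensity 8930 to 20813 in glaucoma and 1795 to 2902 in healthy retinas), and 5 of 8 measured ganglion cell markers at decreased levels with 1 increased (median -2.06, summed intensity 7011 to 11421 in glaucoma and 17901 to 30707 in healthy retinas; POU4F1 and POU4F2 not measured). Of the 9 measured rod markers 0 were called by limma (0 at an unadjusted p under 0.05; median -0.70, summed intensity 6907 to 69848 in glaucoma and 54193 to 75899 in healthy retinas). The rod markers in glaucoma replicate 1 stood at a median of -3.38 relative to the healthy mean. Markers of the pigment epithelium, which lies outside the neural retina, stood high in glaucoma replicate 1 (median 3.37 above the healthy mean) and in healthy replicate 4 (2.58). Glaucoma replicate 5 followed at 1.11, and the other retinas lay between -0.71 and 0.30. Of the 10 markers 0 were called by limma, with 3 higher at an unadjusted p under 0.05. Their summed intensity was 5834 to 53353 in glaucoma and 3721 to 36807 in healthy retinas. Müller glia markers included 1 increased gene of 5 (CLU; summed intensity 54126 to 68434 in glaucoma and 45282 to 54207 in healthy retinas) and lymphocyte markers 2 of 3 measured (CD2, CD3E; 336 to 510 in glaucoma and 296 to 354 in healthy retinas). In bulk tissue, fewer cells of a type and less RNA per cell cannot be told apart.

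Transcripts for the cytosolic ribosome were shifted modestly upward in the glaucomatous retina, and those for the mitochondrial ribosome stood slightly below their healthy levels. Of the 56 cytosolic genes, 13 were called higher (23.2%), where 8.04% of all 7900 tested genes were, and 0 were called lower, where 8.65% of all genes were; limma gave 3 lower and 24 higher at an unadjusted p under 0.05. Of the 72 mitochondrial genes, 7 were called lower (9.72%), a share close to the 8.65% of all genes, and 0 higher, with 20 lower and 3 higher at an unadjusted p under 0.05. The difference was above 0 in 49 of 56 cytosolic genes, with a median of 0.20 and a range of -0.86 to 0.52, and below 0 in 52 of 72 mitochondrial genes, with a median of -0.18 and a range of -0.98 to 0.31. Over all tested genes the median was -0.0070, with 3878 genes above 0 and 4022 below. On the brightest probe sets no gene of either set was both called and changed at least 2-fold, and among all probe sets of the members 2 dimmer ones of MRPS10 were. The exact Wilcoxon rank sum test, for which the smallest possible p is 0.00794, called 0 genes after adjustment (smallest adjusted p = 0.0534). At an unadjusted p under 0.05 it gave 29 cytosolic genes higher and 2 lower, and 2 mitochondrial genes higher and 17 lower. Of all 7900 genes it gave 987 higher and 1080 lower at that threshold, and limma gave 1198 higher and 1340 lower.

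**Figure D1:**
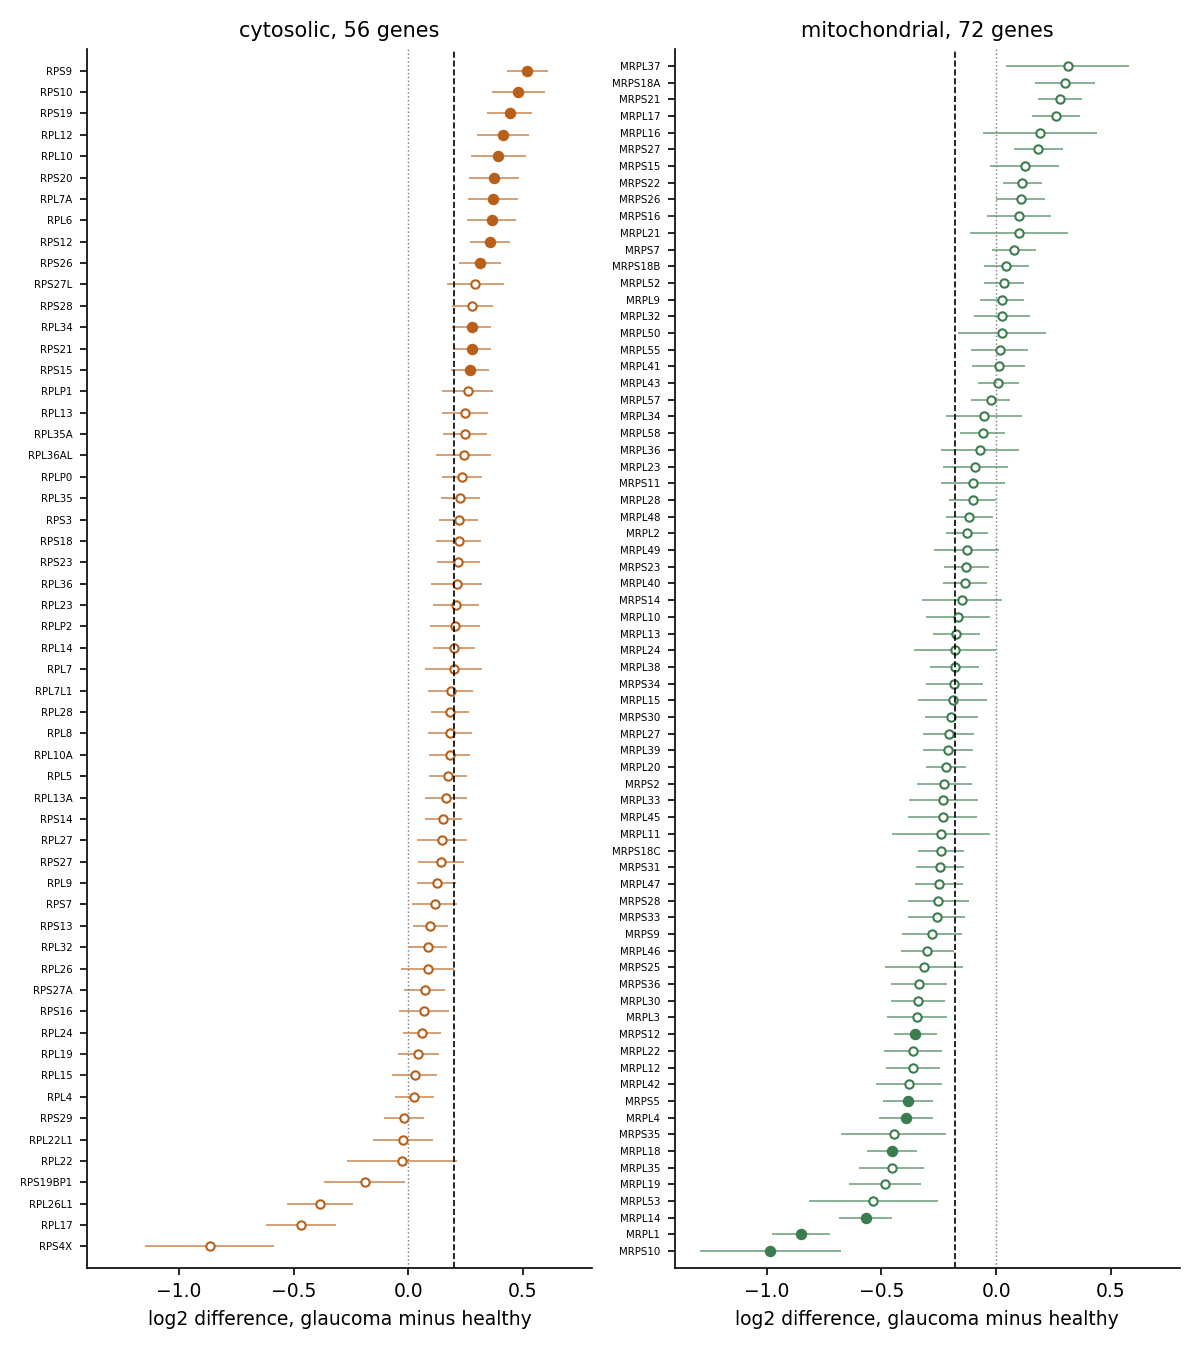
Log2 difference (glaucoma minus healthy, 5 retinas each) of each tested gene of the cytosolic (left) and the mitochondrial ribosome (right), ordered by size; bars are the standard error of the limma fit, filled points are called genes and the dashed line is the median of the set. The cytosolic genes lie mostly right of 0 around their median of 0.20, and the mitochondrial genes mostly left of 0 around -0.18.

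Both sets were followed in each retina. For each retina, the deviation of each gene from the mean of the 5 healthy retinas was taken and its median over the set was formed. The healthy retinas enter that mean themselves, so that their deviations and counts centre on it by construction, while those of the glaucomatous retinas need not. The cytosolic medians were 0.18, 0.13, 0.26, 0.17 and 0.23 in glaucoma replicates 1 to 5, against 0.041, -0.0063, -0.034, 0.016 and 0.038 in healthy replicates 1 to 5. Every glaucomatous retina lay above every healthy retina, and between 44 and 52 of the 56 genes lay above the healthy mean in each of them, against 19 to 37 in each healthy retina. The mitochondrial medians were -0.27, -0.17, -0.10, -0.11 and -0.18 in the glaucomatous and -0.051, 0.013, -0.093, 0.13 and 0.024 in the healthy retinas. The groups met without overlapping, the highest glaucomatous median being -0.10 and the lowest healthy one -0.093. With subunits taken from the letter of the symbol, the groups overlapped in the large subunit alone (highest glaucomatous median -0.1003, lowest healthy -0.1011). They likewise overlapped in the small subunit (-0.090 and -0.12). The number of the 72 genes below the healthy mean was 45 to 61 in the glaucomatous retinas. It was 50 in healthy replicate 1, 55 in healthy replicate 3 and 8 to 32 in the other healthy retinas. Over the whole mitochondrial set, the lowest median was in glaucoma replicate 1 and the highest in healthy replicate 4. Pigment epithelium markers stood high in both of these retinas. Rod markers stood at a median of -3.38 in glaucoma replicate 1 and 0.010 in healthy replicate 4, and the part of either was not tested. The cytosolic minus the mitochondrial median was 0.45, 0.30, 0.36, 0.29 and 0.41 in the glaucomatous and 0.091, -0.019, 0.059, -0.12 and 0.014 in the healthy retinas, and the groups did not overlap. The medians over all tested genes stayed between -0.035 and 0.021 in the glaucomatous and between -0.030 and 0.043 in the healthy retinas. Both Shiba Inus, both Basset Hounds and the Dalmatian stood on the same side of the healthy retinas in both sets.

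**Figure D2:**
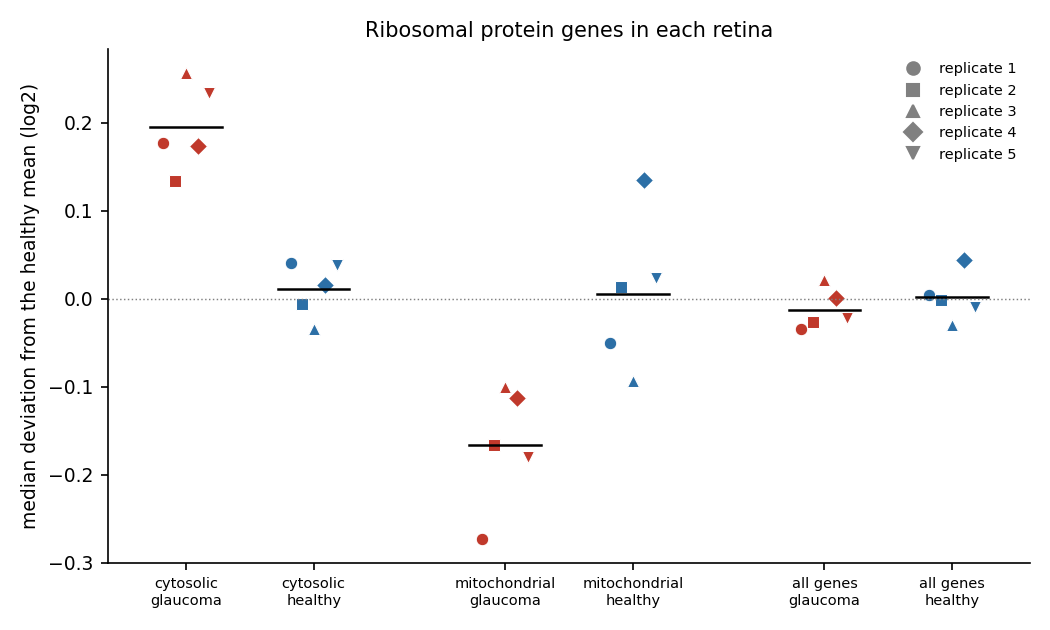
Median deviation from the healthy mean (log2) over the 56 cytosolic genes, the 72 mitochondrial genes and all 7900 tested genes in each of the 5 glaucomatous (red) and 5 healthy (blue) retinas; symbols mark the replicate and lines the mean of a group. The glaucomatous retinas lie between 0.13 and 0.26 for the cytosolic and between -0.27 and -0.10 for the mitochondrial genes. Both are outside the range of the healthy retinas, for the mitochondrial genes only just (lowest healthy median -0.093).

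Without glaucoma replicate 1 and healthy replicate 4 together, the cytosolic median was 0.21 with 3 genes called higher (RPS9, RPS12 and RPS19), and the mitochondrial median was -0.091 with 2 genes called lower (MRPL1 and MRPL14) and 1 higher. Glaucoma replicate 5, where the pigment epithelium markers had a median of 1.11, stayed in this fit. The array's control probe sets for actin and GAPDH gave a log2 3′/5′ ratio of 0.94 ± 0.14 in glaucoma and 1.19 ± 0.22 in healthy retinas (SD, n = 5 each; exact permutation test, both sides, p = 0.0556), and with this ratio in the model 1 cytosolic gene (RPS9) and 2 mitochondrial genes (MRPL1 and MRPL14) were called while the medians were 0.21 and -0.15. A second set of control probe sets gave 2.51 ± 0.41 in glaucoma and 2.29 ± 0.41 in healthy retinas, a difference of the other sign (exact permutation test, both sides, p = 0.389). The share of all tested genes called with these retinas left out or with this ratio in the model was not formed. The part of RNA quality and of tissue composition in the differences was not tested.

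The level of the genes differed between the sets. The cytosolic genes were among the brightest of the array, with a median log2 level of 12.79 over the 10 retinas and a span of 7.00 to 14.01, and the mitochondrial genes had a median of 9.53 with a span of 6.92 to 11.70. Levels of different probe sets depend on their probes and are set side by side here only to take genes from a shared range of brightness. Within a range they were not matched further. Above 12 the median level was 12.96 in the cytosolic and 12.49 in the other genes. From 8 to 11 it was 9.61 in the mitochondrial and 9.14 in the other genes. Among the 43 cytosolic genes with a mean above 12, 42 had a difference above 0 and 11 were called higher, with a median of 0.20; the 243 other genes with a mean above 12 had a median of -0.14, with 24 called higher and 30 lower. The 13 cytosolic genes at or below 12 were divided, with 7 above and 6 below 0, 2 called higher and a median of 0.085. In the range of 8 to 11, the 66 mitochondrial genes had a median of -0.19 with 7 called lower, against a median of -0.042 with 354 lower and 296 higher among 3923 other genes. The median SD of a gene over the glaucomatous retinas was 0.11 in the cytosolic and 0.18 in the mitochondrial set, against 0.26 over all tested genes. Over the healthy retinas it was 0.11 and 0.17, against 0.18. Above 12, cytosolic genes had 0.088 in glaucoma and 0.098 in healthy retinas, against 0.19 and 0.12 in the other genes. From 8 to 11, mitochondrial genes had 0.17 in glaucoma and 0.16 in healthy retinas, against 0.27 and 0.18 in the other genes.

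**Figure D3:**
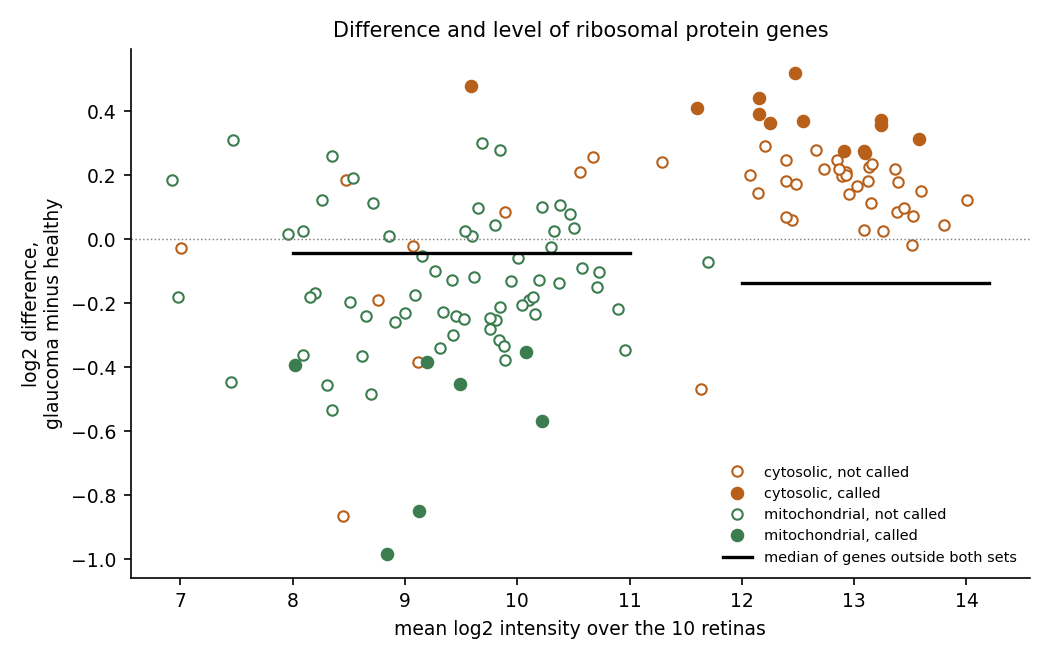
Log2 difference (glaucoma minus healthy) against the mean log2 intensity over the 10 retinas for each tested gene of the cytosolic (orange) and mitochondrial (green) ribosome, filled where called; black lines are the median difference of genes outside both sets with a mean of 8 to 11 and above 12. Of the 43 cytosolic genes above 12, 42 lie above 0, and the other genes above 12, not matched further in level, have a median of -0.14.

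Cytosolic genes were assigned to a subunit by the letter of the symbol, which includes relatives such as RPS19BP1 and RPL7L1. Of the 22 genes of the small subunit 8 were called higher (36.4%, median 0.22), and of the 34 of the large subunit 5 (14.7%, median 0.18). Over all tested genes, 8.04% were called higher. Whether the subunits differ was not tested. RPS9, a core protein of the small subunit whose bacterial counterpart binds the ribosomal RNA early in assembly, had log2 levels of 12.58, 12.62, 12.81, 12.83 and 12.83 in glaucoma, against 12.17, 12.17, 12.24, 12.24 and 12.25 in healthy retinas. Its lowest glaucomatous retina lay above its highest healthy one, and the level rose 1.43-fold (log2 difference 0.52 ± 0.090 SE, adjusted p = 0.0032 in limma), the largest upward difference of the 56 genes. RPS10, which sits near the path of the messenger and is modified when ribosomes collide, had 10.01, 9.93, 9.62, 9.81 and 9.75 in glaucoma, against 9.51, 9.05, 9.47, 9.36 and 9.33 in healthy retinas. All glaucomatous retinas were above all healthy ones (difference 0.48 ± 0.12, adjusted p = 0.0174), and the second probe set of the gene rose by 0.57 (adjusted p = 0.0223). RPS19, the gene most often mutated in human Diamond-Blackfan anaemia, had 12.29, 12.23, 12.47, 12.35 and 12.55 in glaucoma, against 11.82, 11.89, 11.93, 11.95 and 12.10 in healthy retinas. The groups did not overlap, with the Dalmatian highest (difference 0.44 ± 0.10, adjusted p = 0.0118).

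RPS12, a protein of the beak of the small subunit, had 13.50, 13.41, 13.46, 13.42 and 13.29 in glaucoma, against 12.95, 13.09, 12.98, 13.12 and 13.14 in healthy retinas. All glaucomatous retinas lay above all healthy ones (difference 0.36 ± 0.088, adjusted p = 0.0184). RPS26, which lines the exit of the messenger from the small subunit, had 13.68, 13.65, 13.78, 13.77 and 13.77 in glaucoma, against 13.58, 13.42, 13.39, 13.46 and 13.25 in healthy retinas. Again no glaucomatous retina reached down to a healthy one (difference 0.31 ± 0.091, adjusted p = 0.0375). The 3 tested probe sets of RPS26 had differences of 0.082 to 0.41, and 2 were called. RPS20, a protein of the head of the small subunit, had 13.53, 13.22, 13.55, 13.37 and 13.45 in glaucoma, against 13.29, 12.97, 13.07, 13.06 and 12.86 in healthy retinas. Glaucoma replicate 2 lay below healthy replicate 1, and the other glaucomatous retinas lay above all healthy ones (difference 0.37 ± 0.11, adjusted p = 0.0386); of its 6 tested probe sets all had a difference above 0 and 3 were called. RPS15 and RPS21, also of the small subunit, rose by smaller amounts (0.27 ± 0.083, adjusted p = 0.0474, and 0.28 ± 0.083, adjusted p = 0.0429) without overlap between the groups. They and RPL34 fell outside the naming rule and were chosen after their values were seen. The probe sets of RPS9 and RPS19 share a cluster number in their names, as do those of RPS12 and RPS21, and whether these pairs have probes in common was not tested.

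In the large subunit, RPL12, which forms the base of the stalk that recruits elongation factors, had 11.85, 11.59, 12.05, 11.63 and 11.90 in glaucoma, against 11.43, 11.39, 11.22, 11.50 and 11.44 in healthy retinas. All glaucomatous retinas were above all healthy ones, replicates 2 and 4 only slightly (difference 0.41 ± 0.11, adjusted p = 0.0298). RPL10, which joins the large subunit late and completes its catalytic centre, had 12.37, 12.03, 12.52, 12.30 and 12.54 in glaucoma, against 11.75, 12.06, 12.10, 11.96 and 11.93 in healthy retinas. Glaucoma replicate 2 lay within the healthy range and the other glaucomatous retinas above it (difference 0.39 ± 0.12, adjusted p = 0.0464). RPL7A and RPL6, RNA-binding proteins of the large subunit, rose by 0.37 ± 0.11 (adjusted p = 0.0393) and 0.36 ± 0.11 (adjusted p = 0.0386), each without overlap. All 10 tested probe sets of RPL6 had a difference above 0, between 0.063 and 0.38, and 2 were called. RPL34 rose by 0.28 ± 0.086 (adjusted p = 0.0483). Its 3 tested probe sets had differences of 0.12 to 0.28, and 1 was called.

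**Figure D4:**
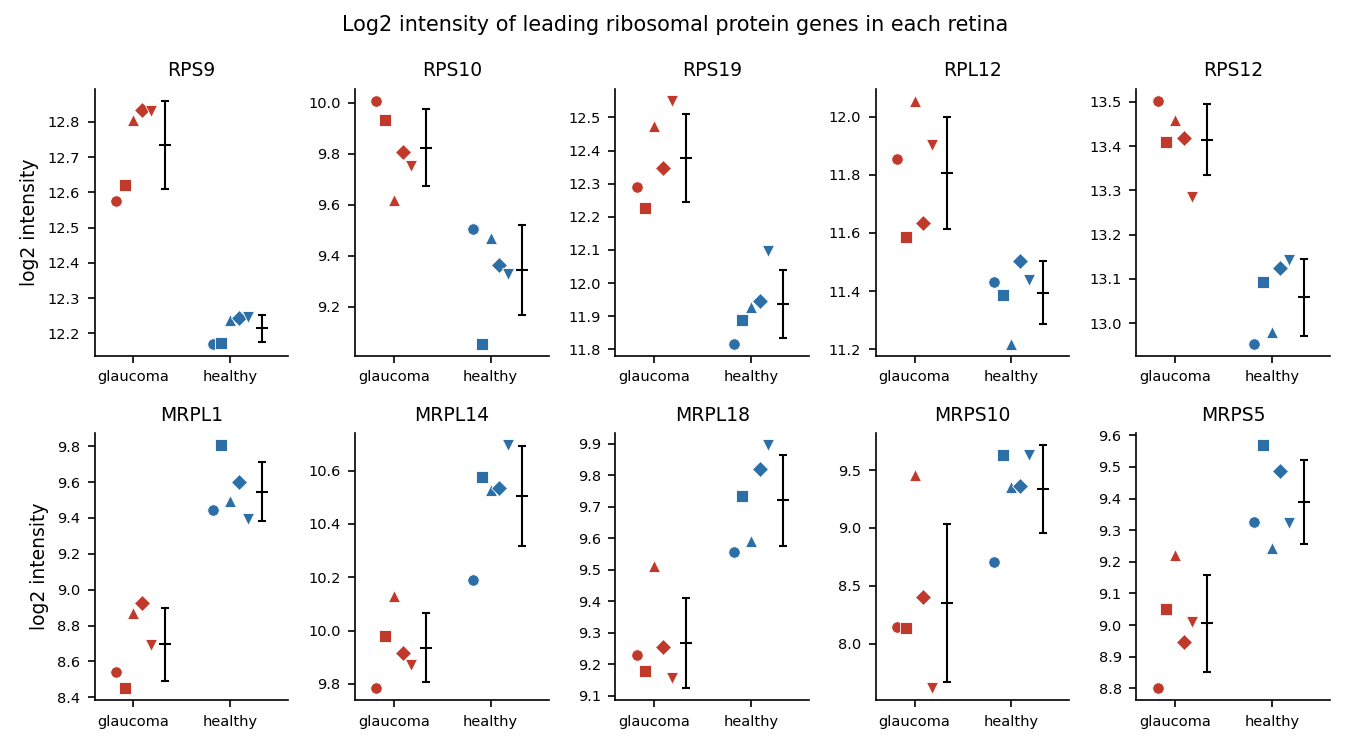
Log2 intensity of 5 cytosolic (upper row) and 5 mitochondrial (lower row) ribosomal protein genes in each of the 5 glaucomatous (red) and 5 healthy (blue) retinas, symbols marking the replicate as in the plot of medians per retina; bars are the mean and SD of a group, and the axes do not start at 0. The groups do not overlap for any of these genes except MRPS10, where glaucoma replicate 3 lies among the healthy retinas.

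Leaving out 1 retina at a time, the number of cytosolic genes called higher was 9 without glaucoma replicate 1 or 2, 6 without glaucoma replicate 4 or healthy replicate 1, 5 without glaucoma replicate 3 or healthy replicate 3, 4 or 5, and 4 without glaucoma replicate 5 or healthy replicate 2, while the median stayed between 0.17 and 0.21. RPS9, RPS10, RPS12 and RPS19 were called in all 10 fits, and RPL12 in 4, RPL7A and RPS26 in 3, RPL6 and RPS20 in 2 and RPL10, RPL34, RPS15 and RPS21 in 1. How many of all tested genes were called in each of these fits was not counted.

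Every glaucomatous retina lay above every healthy one in 19 of 56 cytosolic genes, where 7.29% of all tested genes showed this, and below in 1, where 7.84% did. The 19 comprised 11 of the called genes and RPL14, RPL28, RPL35, RPLP0, RPS3, RPS13, RPS14 and RPS28. The stalk proteins RPLP0, RPLP1 and RPLP2, which bind the elongation factors, had differences of 0.23, 0.26 and 0.20 and did not pass (adjusted p = 0.0854, 0.128 and 0.224). RPS3, a small subunit protein with a further role in DNA repair, and RPL5, which carries the 5S RNA and binds the p53 regulator MDM2, had 0.22 (adjusted p = 0.0996) and 0.17 (adjusted p = 0.178). The brightest cytosolic genes were RPL9, RPL19 and RPS14, with differences of 0.12, 0.044 and 0.15 (adjusted p = 0.349, 0.767 and 0.215).

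Ribosomal protein genes in common use as internal references in transcript assays were not called on their brightest probe sets. RPL19 averaged 13.82 ± 0.10 in glaucoma and 13.78 ± 0.07 in healthy retinas (SD, n = 5 each, here and for the next 4 genes). RPL32 averaged 13.43 ± 0.08 in glaucoma and 13.34 ± 0.05 in healthy retinas, and RPL13A 13.11 ± 0.08 in glaucoma and 12.94 ± 0.11 in healthy retinas. RPS18 averaged 12.97 ± 0.05 in glaucoma and 12.75 ± 0.15 in healthy retinas, and RPLP0 13.27 ± 0.10 in glaucoma and 13.04 ± 0.04 in healthy retinas. The differences spanned 0.044 for RPL19 to 0.23 for RPLP0, where all 5 glaucomatous retinas lay above all healthy ones; those of RPL32, RPL13A and RPS18 were 0.086, 0.17 and 0.22 (adjusted p = 0.507, 0.238 and 0.144). The dimmer tested probe set of RPS18 was called higher (0.34, adjusted p = 0.0415), and RPLP0 was called with a trended robust fit (adjusted p = 0.0248). RPS27A, made as a fusion with ubiquitin, had 0.073 (adjusted p = 0.612).

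The 7 cytosolic genes with a difference below 0 were RPS4X, RPL17, RPL26L1, RPS19BP1, RPL22, RPL22L1 and RPS29, of which only RPS29 had a mean above 12. RPS4X, the X-linked gene of a small subunit protein, had 7.46, 8.65, 7.94, 8.77 and 7.26 in glaucoma, against 8.91, 9.11, 8.60, 8.79 and 9.01 in healthy retinas on its only tested probe set. Glaucoma replicates 2 and 4 reached the healthy range and the other 3 lay below it (difference -0.86 ± 0.28, adjusted p = 0.0569). RPL17, a protein at the exit tunnel of the large subunit that was named after its values were seen, had 10.95, 11.65, 11.62, 11.63 and 11.16 in glaucoma, against 11.67, 12.03, 11.89, 11.83 and 11.94 in healthy retinas. It was the cytosolic gene with all glaucomatous retinas below all healthy ones (difference -0.47 ± 0.15, adjusted p = 0.0601), and of its 2 other probe sets 1 had -0.46 and 1 had 0.13. RPS4X was called lower without glaucoma replicate 2 (-1.02, adjusted p = 0.029) or 4 (-1.05, adjusted p = 0.0227), and RPL17 without glaucoma replicate 2 (-0.53, adjusted p = 0.046) or 3 (-0.52, adjusted p = 0.0493).

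Paralogs and relatives by name had differences on both sides of 0. RPS27L, a p53-induced paralog, had 0.29 (adjusted p = 0.125) on its brighter and 0.64 (adjusted p = 0.00785) on its second probe set, beside 0.14 for RPS27 (adjusted p = 0.344). RPL26L1 had -0.38 (adjusted p = 0.0942) and RPL26 0.085 (adjusted p = 0.647), while RPL22L1 and RPL22 had -0.022 and -0.028 (adjusted p = 0.928 and 0.95). RPL7L1, a nucleolar relative of RPL7, had 0.19 beside 0.20 for RPL7 (adjusted p = 0.215 and 0.291), and RPL36AL had 0.24 (adjusted p = 0.185). RPS19BP1, which the rule includes although it encodes a partner of RPS19, had -0.19 (adjusted p = 0.487).

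The called mitochondrial genes were 4 of 46 in the large (8.70%, median -0.18) and 3 of 26 in the small subunit (11.5%, median -0.19). Over all tested genes, 8.65% were called lower. Subunits were taken from the letter of the symbol, which places MRPS18A, MRPS30 and MRPS36 in the small subunit by name only. MRPL1, a protein of the mobile stalk at the exit site of the large subunit, had 8.54, 8.45, 8.87, 8.92 and 8.69 in glaucoma, against 9.44, 9.80, 9.49, 9.60 and 9.40 in healthy retinas. The groups were far apart, and the level was 1.80-fold lower in glaucoma (difference -0.85 ± 0.12, adjusted p = 0.00115 in limma); the second probe set of the gene had -0.59 (adjusted p = 0.00326). MRPL14, at the face of the large subunit that meets the small one, had 9.78, 9.98, 10.13, 9.92 and 9.87 in glaucoma, against 10.19, 10.58, 10.53, 10.53 and 10.69 in healthy retinas. The groups did not overlap, glaucoma replicate 3 and healthy replicate 1 being nearest (difference -0.57 ± 0.12, adjusted p = 0.00718). MRPL18, which in human cells also takes part in the import of 5S RNA into mitochondria, had 9.23, 9.18, 9.51, 9.26 and 9.16 in glaucoma, against 9.56, 9.73, 9.59, 9.82 and 9.89 in healthy retinas. Glaucoma replicate 3 came close to the lowest healthy retina and the other 4 lay further below (difference -0.45 ± 0.11, adjusted p = 0.0159). The 4 probe sets of MRPL18 had differences of -0.32 to -0.47, and 2 were called.

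MRPS10, of the head of the small subunit, had 8.15, 8.14, 9.45, 8.40 and 7.62 in glaucoma, against 8.70, 9.63, 9.35, 9.36 and 9.63 in healthy retinas. It had the lowest difference of the set (-0.98 ± 0.31, adjusted p = 0.0493) with overlapping groups, since glaucoma replicate 3 lay among the healthy retinas and healthy replicate 1 below it. Its 2 dimmer probe sets were called as well, at -1.04 and -1.44 (adjusted p = 0.0482 and 0.0439). MRPL4 (difference -0.39 ± 0.12, adjusted p = 0.0432) belongs to the large subunit, and its groups did not overlap. The second probe set of MRPL4 had -0.33 and was not called (adjusted p = 0.102). MRPS12, the counterpart of the bacterial protein at which streptomycin resistance arises, had 9.69, 9.87, 9.98, 9.99 and 9.96 in glaucoma, against 10.23, 10.20, 10.22, 10.40 and 10.21 in healthy retinas. All glaucomatous retinas lay below all healthy ones (difference -0.35 ± 0.094, adjusted p = 0.0263). The other probe set of MRPS12 had -0.25 and was not called. MRPS5, of the small subunit, had -0.38 ± 0.11 (adjusted p = 0.0333) on its brighter and -0.045 (adjusted p = 0.855) on its other probe set. MRPL1, MRPL14 and MRPL18 were called in all 10 fits that left out 1 retina, MRPS12 in 7, MRPS5 in 3 and MRPL4 and MRPS10 in 2. The number of genes called lower was 3 without healthy replicate 2, 4 or 5, 4 without glaucoma replicate 4 or 5 and between 6 and 9 in the other fits, and the median was between -0.20 and -0.13. The share of all tested genes called lower in these fits was not formed.

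All glaucomatous retinas lay below all healthy ones in 10 of 72 mitochondrial genes, beside 7.84% of all tested genes, and above them in 2, beside 7.29%. The 10 comprised 6 of the called genes and MRPL12, MRPL20, MRPL35 and MRPS36. MRPL12, a stalk protein that in human cells also binds the mitochondrial RNA polymerase, had 8.20, 8.58, 8.53, 8.39 and 8.48 in glaucoma, against 8.73, 8.73, 8.58, 9.07 and 8.89 in healthy retinas. The highest glaucomatous retina lay just below the lowest healthy one (difference -0.36 ± 0.12, adjusted p = 0.0562). MRPL35, a protein of the large subunit, and MRPS36, since assigned to the oxoglutarate dehydrogenase complex, had -0.46 (adjusted p = 0.0511) and -0.33 (adjusted p = 0.0839). The dimmer tested probe set of MRPS36 was called lower (-0.69, adjusted p = 0.0157). Without glaucoma replicate 2 MRPS36 was called (adjusted p = 0.0384), without glaucoma replicate 3 MRPL35 (adjusted p = 0.0339) and without healthy replicate 3 MRPL12 (adjusted p = 0.046). The 2 genes with all glaucomatous retinas above all healthy ones were MRPL17 (0.26, adjusted p = 0.108) and MRPS21 (0.28, adjusted p = 0.0712). MRPL35, MRPS36, MRPL17 and MRPS21 were named after their values were seen.

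The brightest mitochondrial genes were MRPL36, MRPL3 and MRPL20, with differences of -0.070, -0.35 and -0.22 (adjusted p = 0.814, 0.0934 and 0.104). Among genes that were not called, MRPL53 had the lowest difference (-0.54, adjusted p = 0.214) and MRPL37 the highest (0.31, adjusted p = 0.452). MRPL53 spanned 7.06 to 8.89 within the glaucoma group, and MRPL37 was -0.26 without glaucoma replicate 1, with its second probe set at -0.22. MRPS16 and MRPS22, both mutated in human disorders of mitochondrial translation, had 0.10 and 0.11 (adjusted p = 0.663 and 0.382). MRPL28, MRPL41 and MRPS30 had -0.10, 0.011 and -0.19 (adjusted p = 0.528, 0.959 and 0.266).

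At the level of probe sets, 21 of 95 cytosolic ones were called higher and 0 lower, where 7.58% of all 18416 were higher and 9.40% lower. Of 142 mitochondrial ones, 14 were called lower and 0 higher. At an unadjusted p under 0.05, limma gave 4 cytosolic lower and 5 mitochondrial higher, beside 3356 lower and 2647 higher of all 18416. The probe sets of a gene had the same sign in 18 of 22 cytosolic and 45 of 53 mitochondrial genes with several tested ones, and no gene had probe sets called in both directions. Ribosomal protein genes have many processed pseudogenes, and probe sets ending in s, x or a before at may match more than 1 transcript. Of the 71 cytosolic probe sets of this kind 16 were called higher (median 0.20), and of the 24 others 5 (median 0.19). A further 53 tested probe sets listed several symbols including a cytosolic ribosomal one and stood outside the rule; 8 were called higher and 0 lower (0 lower at an unadjusted p under 0.05 in limma), 49 were above 0, and their median was 0.17.

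The lists of initiation factors, of elongation and termination factors and of nucleolar biogenesis genes had medians between 0.0086 and 0.081 and each held called genes of both directions, beside 8.04% of all tested genes called higher and 8.65% called lower. Of 43 measured initiation factors, 2 were called higher and 4 lower (median 0.0086). EIF4EBP1, which sequesters the cap-binding factor, rose by 0.74 ± 0.19 (adjusted p = 0.0212), and EIF4E, the cap-binding factor itself, had -0.55 ± 0.13 (adjusted p = 0.017). EIF4B, a helicase cofactor, rose by 0.45 (adjusted p = 0.0442), while EIF1B, EIF2B3 of the exchange factor for eIF2, and DENR, a re-initiation factor, had -0.49, -0.45 and -0.76 (adjusted p = 0.0119, 0.0126 and 0.0188). EIF4EBP1 had log2 levels of 8.64, 7.80, 8.06, 7.69 and 8.41 in glaucoma, against 7.21, 7.35, 7.28, 7.74 and 7.29 in healthy retinas, with glaucoma replicate 4 just below healthy replicate 4. EIF4B kept its call in 10 of 29 alternatives, with differences of 0.070 to 0.58.

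Of 12 measured elongation and termination factors, 2 were called higher and 1 lower (median 0.081). EEF1A2, the form of the factor that brings aminoacyl-tRNA to the ribosome in neurons and muscle, had 6.36, 7.47, 7.44, 6.06 and 6.11 in glaucoma, against 8.59, 8.94, 8.61, 8.85 and 8.98 in healthy retinas. All glaucomatous retinas lay well below all healthy ones (difference -2.10 ± 0.29, adjusted p = 0.000791), beside 5 of 8 ganglion cell markers called lower, whose part in this was not tested. EEF1A1, the general form, averaged 13.78 ± 0.19 in glaucoma and 13.70 ± 0.16 in healthy retinas (SD, n = 5 each; difference 0.077, adjusted p = 0.698). EEF1G and EEF1D, subunits of the exchange factor that recharges it, rose by 0.34 ± 0.092 and 0.53 ± 0.15 (adjusted p = 0.0277 and 0.0333), and EEF2, the translocase, had 0.39 (adjusted p = 0.123).

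Of 76 measured genes of ribosome assembly in the nucleolus, 3 were called higher and 4 lower (median 0.015). TAF1D of the RNA polymerase I initiation complex, DDX54, a helicase, and NSA2 of large subunit maturation rose by 0.49, 0.48 and 0.55 (adjusted p = 0.0372, 0.0326 and 0.0494). DHX37, a helicase of small subunit maturation, had -1.19 (adjusted p = 0.0185), and the small subunit RNA methyltransferase EMG1, the nucleolar GTPase GNL3L and the maturation kinase RIOK2 had -0.43, -0.41 and -0.33 (adjusted p = 0.0355, 0.0412 and 0.0474). EMG1 kept its call in 10, GNL3L in 8 and RIOK2 in 9 of 29 alternatives, each below 0 throughout. Of 9 measured S6 kinase and mTOR pathway genes, RPS6KA1 was called higher (0.54 ± 0.13, adjusted p = 0.0193) and the median was -0.14. Of 22 measured mitochondrial translation factors and assembly proteins, 0 were called by limma (5 lower and 0 higher at an unadjusted p under 0.05), and the median of -0.20 was close to that of the mitochondrial ribosomal proteins; the per-retina medians were -0.33, -0.18, -0.028, -0.065 and -0.34 in glaucoma, against -0.018, -0.020, -0.045, 0.12 and -0.024 in healthy retinas. Glaucoma replicate 3 lay within the healthy range.

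**Figure D5:**
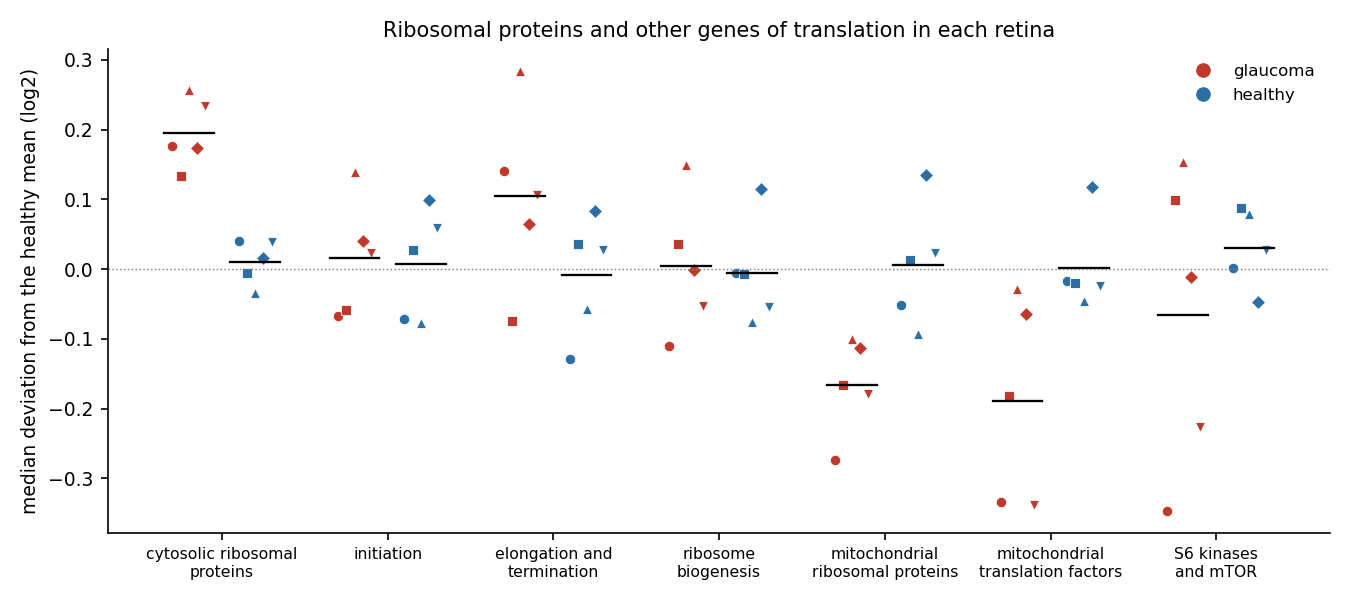
Median deviation from the healthy mean (log2) over the genes of each list in each of the 5 glaucomatous (red) and 5 healthy (blue) retinas, lines marking the mean of a group. The groups are apart for the cytosolic ribosomal proteins and nearly touch for the mitochondrial ones (highest glaucomatous median -0.10, lowest healthy -0.093). They overlap for initiation, elongation, ribosome biogenesis, mitochondrial translation factors and the S6 kinase list.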

How the data were processed

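Intensities were deposited by the authors on a linear scale after robust multi-array averaging (background correction, quantile normalization and summary per probe set) for 42924 probe sets other than array controls on 10 arrays, 1 per dog. RNA had been amplified from the poly(A) tail and labelled with biotin. Log2 was taken, probe sets above 7 in at least 2 retinas were kept (18416), and glaucoma was compared with healthy retinas in limma 3.58.1 (R 4.3.3) with empirical Bayes moderation and Benjamini-Hochberg adjustment; the tested probe set of highest mean over the retinas stood for a gene (7900 genes). The fit was tested on simulated data. The number of arrays limits the precision. Gene names came from the platform annotation, in which 29254 probe sets have 1 symbol, 439 several and 13231 none. Of the 283 member probe sets, 263 had their gene in the RefSeq table, all under the same symbol. The gene IDs of the other 20, from 9 genes, were not in it, so that their symbols were not checked. These include the probe sets of the called genes RPL10 and RPL34. No sequence or coordinate was used. The members, the lists of translation genes and markers and the tests were chosen with earlier results of these data known. Named genes were, in each set, up to 10 called in each direction, the 3 brightest, the largest difference in each direction that was not called and genes with special roles or use as references; in the lists of translation genes, up to 5 with the smallest adjusted p, of which those called are given together with a few named for their role (EEF1A1, EEF2) or as the remaining called genes of a list (EIF4B, NSA2, RIOK2). Alternatives covered filter, normalization, fit, probe set rule, covariates and samples; leaving out both retinas with high pigment epithelium markers and a second 3′/5′ ratio were added after seeing the data. The replicate numbers name the dogs and do not pair them. Sources differ on the ages of 2 glaucoma dogs, and the labels' ages were used.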

Additional observations from a re-analysis of the deposited data

Results flagged for a closer look

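A retina far from the other 4 of its group, with a gap to the nearest that exceeded the critical value of Dixon's test, was found for 5 of the genes, in 78 groups tested, of which chance flags about 1 in 20. MRPL18 was highest in glaucoma replicate 3 at 9.51, against 9.16 to 9.26 in the other glaucomatous retinas. MRPS12 was highest in healthy replicate 4 at 10.40, against 10.20 to 10.23 in the other healthy retinas. Among the translation factors, EIF1B was highest in glaucoma replicate 3 at 10.44 (9.98 to 10.10 in the other glaucomatous retinas), EIF2B3 was lowest in healthy replicate 3 at 9.88 (10.07 to 10.13 in the other healthy retinas) and EIF4EBP1 was highest in healthy replicate 4 at 7.74 (7.21 to 7.35 in the other healthy retinas).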

How the results depend on the processing

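The medians of both sets kept their direction under every alternative tried (cytosolic 0.17 to 0.24, mitochondrial -0.23 to -0.091), while the counts of called genes changed. With the 2-fold minimum 472 of all 7900 tested genes were called, and with the exact Wilcoxon test 0. For the other alternatives the share of all tested genes called was not formed. A change of the counts in a set and a change in all genes can therefore not be told apart there. Cytosolic genes called higher and mitochondrial genes called lower numbered 13 and 7 in the fit reported, 1 and 2 with the 3′/5′ ratio in the model, 5 and 3 with age, 8 and 8 after a further quantile normalization (1 mitochondrial gene higher), 16 and 14 with array weights (1 cytosolic gene lower, 1 mitochondrial gene higher), 3 and 9 without the Basset Hounds (2 cytosolic lower, 1 mitochondrial higher), 7 and 3 without the Shiba Inus, 3 and 2 without both retinas with high pigment epithelium markers (1 mitochondrial higher; mitochondrial median -0.091, cytosolic minus mitochondrial 0.30), 5 and 7 without probe sets ending in x or s before at (25 and 55 genes tested), 21 and 14 as probe sets, 1 and 2 at an adjusted p under 0.01, and 0 and 0 both with a 2-fold minimum and with the exact Wilcoxon test. Cyclic loess and median centring each gave 1 mitochondrial gene higher, and the second 3′/5′ ratio and the trended robust fit each 1 cytosolic gene lower. With the replicate number as a block 2 and 2 were called; the numbers do not pair the dogs (correlations of deviations -0.24 to 0.069). Leaving out 1 retina gave 4 to 9 cytosolic genes higher and 0 to 2 lower, 3 to 9 mitochondrial genes lower and 0 higher, with medians of 0.17 to 0.21 and -0.20 to -0.13 and 0.33 to 0.40 between the sets. The 20 called members named kept their direction throughout, and 264 of their 572 values lost the call; named members that were not called gained a call in 30 values, among them RPS4X (lower) in 4 and RPL17 (lower) in 5. Called genes of the translation lists kept the call in 285 values and lost it in 202. Genes that were not called and lay near 0 or rested on 1 or 2 retinas changed sign: MRPL36 to 0.039 with array weights, 0.034 without both retinas and 0.057 without the Basset Hounds (-0.17 to 0.039 without single retinas); MRPL37 to -0.27 without both retinas and -0.29 without the Shiba Inus (-0.26 to 0.47); MRPL41 to -0.13 with the 3′/5′ ratio, -0.069 with array weights and -0.017 without both retinas (-0.039 to 0.060); RPL22 to 0.44 with age, 0.16 with the second ratio and 0.045 without the Shiba Inus (-0.15 to 0.14); RPL22L1 to 0.14 with the 3′/5′ ratio, 0.031 with array weights, 0.080 without both retinas, 0.031 with cyclic loess, 0.014 with quantile normalization and 0.035 without the Shiba Inus (-0.093 to 0.046); MRPL53 to 0.13 and RPL26 to -0.031 with age; MRPS16 to -0.064 without the Shiba Inus; and RPL19 to -0.0047 with quantile normalization. The causes were not tested.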

Other observations

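Of the ribosomal proteins that carry other names, RACK1, the signalling scaffold of the small cytosolic subunit, had a log2 difference of 0.15 (adjusted p = 0.307 in limma) and FAU, made as a fusion with a ubiquitin-like protein, 0.042 (adjusted p = 0.851). Of 6 measured mitochondrial subunits and partners under other names, 0 were called by limma (1 lower at an unadjusted p under 0.05; median -0.056), with OXA1L, the insertase at the exit of the mitochondrial ribosome, at -0.26 (adjusted p = 0.0845) and DAP3, a GTP-binding protein of the small subunit, at -0.38 (adjusted p = 0.252). Among 9 measured nascent chain proteins and messengers with the same 5′ terminal tract, 0 were called by limma (2 higher at an unadjusted p under 0.05), the median was 0.045, and TPT1 had 0.23 (adjusted p = 0.126). Of 22 listed symbols of cytosolic aminoacyl-tRNA synthetases, which charge the tRNAs, only 4 were found in the annotation. Whether the array holds the others under other symbols was not checked. Limma called 0 of these 4 (1 lower at an unadjusted p under 0.05, median -0.10). Of 17 listed mitochondrial synthetases 15 were found and 6 measured, and 0 were called by limma (0 at an unadjusted p under 0.05, median -0.010). No marker of red blood cells was measured.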
